A study of Mus musculus with 12 samples.

Results

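The 10 genes described here encode integrin subunits: Itgb3, Itgav and Itgb5 of the alpha-v integrins, Itgb1 with its partners Itga4 and Itga5, and Itgb2 with its partners Itgam, Itgax and Itgal. They were found by symbol in a bulk RNA-seq. count table of 47643 genes, from a list drawn up with earlier results of these data known, and 11 rows carry these symbols because Itgam stands on 2 rows. All 10 symbols were among the 13681 genes with enough counts to be tested, and the second Itgam row, with 10 counts over all libraries, was not. Monocytes grown from bone marrow (BMMs) of BALB/c mice (WT) were turned into osteoclasts with M-CSF and RANKL, which all 3 groups received, and RNA was taken on day 3. OCsCtr was left unstimulated, OCsEo received sorted eosinophils at 2 eosinophils per BMM, and OCsEoS received eosinophil supernatant at a dilution of 1:2, in both cases from day 0 for 48 h before washing. The eosinophils (CD45+ CD125int Siglec-F+) were sorted from pooled blood and bone marrow of IL-5tg/4get mice, which overproduce IL-5 and hold many eosinophils, and the supernatant came from eosinophils sorted in this way and cultured alone. Each group had 4 libraries, which the study describes as biological replicates and, in its plots, as individual mice. Whether libraries of different groups share a mouse is not given in the sources used here.

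Integrins are receptors of 1 alpha and 1 beta chain that couple the extracellular matrix or other cells to the actin cytoskeleton. The alpha-v beta-3 integrin is the main matrix receptor of the osteoclast: it binds RGD motifs in bone matrix proteins such as osteopontin, signals through the kinases Src and Syk, and helps to organise the podosome belt and the sealing zone under which bone is resorbed. Beta-5 is an alternative partner of alpha-v that osteoclast precursors carry, beta-1 integrins bind fibronectin, collagens and VCAM-1, and beta-2 integrins are the leukocyte receptors for ICAMs and complement fragments.

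Library totals ranged from 27837530 to 40327869 counts, so that 3 counts, taken as the limit of detection, equalled 0.0744 to 0.108 CPM (counts scaled to library size, with TMM factors). The members lay far above this limit, the lowest single value being 402 counts for Itgax in OCsEoS 1. The T cell, B cell and mast cell markers summed to at most 4.49, 20.4 and 1.41 CPM in any library, and the 6 macrophage markers to 2148 to 2447 CPM in OCsCtr, 1885 to 2223 CPM in OCsEo and 1661 to 2047 CPM in OCsEoS. The macrophage sum followed Csf1r (1238, 909 and 835 CPM on average) and, in OCsEoS, also Cd68 (754, 738 and 599 CPM). Of the 6 markers, 4 had log2 fold changes above 0 in each comparison. In OCsEoS, Adgre1 and Mrc1 were called higher (0.56 and 0.80, adjusted p = 2.97e-04 and 0.0188) and 1 marker, Csf1r, was called lower (-0.57). All 9 osteoclast markers examined were present in every group, with a summed level of 27886 to 33954 CPM in OCsCtr, 17860.1 to 22924.5 CPM in OCsEo and 14724 to 21841 CPM in OCsEoS. On the first principal component of all tested genes, OCsEoS 4 lay at 53.9 while the other stimulated libraries lay between -6.98 and 18.7, and OCsEo 3 lay lowest on the second at -42.3. The numbers of genes and members called, and the Itgb3 and Itgav values, are therefore also given without these 2 libraries. A gene was called when its adjusted p from edgeR's quasi-likelihood test was under 0.05 and its log2 fold change exceeded 0.5 in size.

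Itgb3 was the member with the largest difference in both comparisons with OCsCtr. It encodes the beta-3 chain and lies on chromosome 11 (chr11:104608000-104670476, GRCm38, + strand). Its level in the OCsCtr libraries was 472, 503, 549 and 542 CPM. In OCsEo it was 233, 280.0, 246 and 281 CPM, and in OCsEoS 265, 330.4, 281 and 219 CPM. Every stimulated library lay below every unstimulated one, and the ranges of OCsEo and OCsEoS overlapped. The log2 fold change was -0.99 in OCsEo (95% interval -1.19 to -0.79, adjusted p = 1.02e-06) and -0.91 in OCsEoS (-1.11 to -0.72, adjusted p = 3.90e-06), so that the level fell by 49.7% and by 47.0%. Among the 357 genes called lower in OCsEo it ranked 41st by the size of the fall, and among the 562 called lower in OCsEoS it ranked 106th. By adjusted p it ranked 25th and 23rd of all 13681 genes. In bulk samples fewer osteoclasts and less of a transcript per osteoclast cannot be told apart. The osteoclast markers fell in the same libraries, 7 of 9 being called lower in each comparison and none higher. Over all tested genes 2.61% and 4.11% were called lower and 3.27% and 3.63% higher. The markers' log2 fold changes ran from -0.81 to -0.36 in OCsEo and from -1.10 to -0.32 in OCsEoS. The study itself drew Itgb3 from these libraries, so its fall is not independent of that choice. Platelets also carry beta-3, and the 5 platelet or megakaryocyte markers summed to 102 to 158 CPM in OCsCtr, 94.9 to 166 CPM in OCsEo and 135 to 175 CPM in OCsEoS. Pf4 alone carried the higher sum (57.6, 74.3 and 107 CPM on average, called higher in OCsEoS). The other 4 had log2 fold changes of -0.46 to -0.22 in OCsEoS, of which Itga2b and Ppbp were lower by adjusted p (0.0371 and 0.0413). Their part in the Itgb3 result was not tested.

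**Figure D1:**
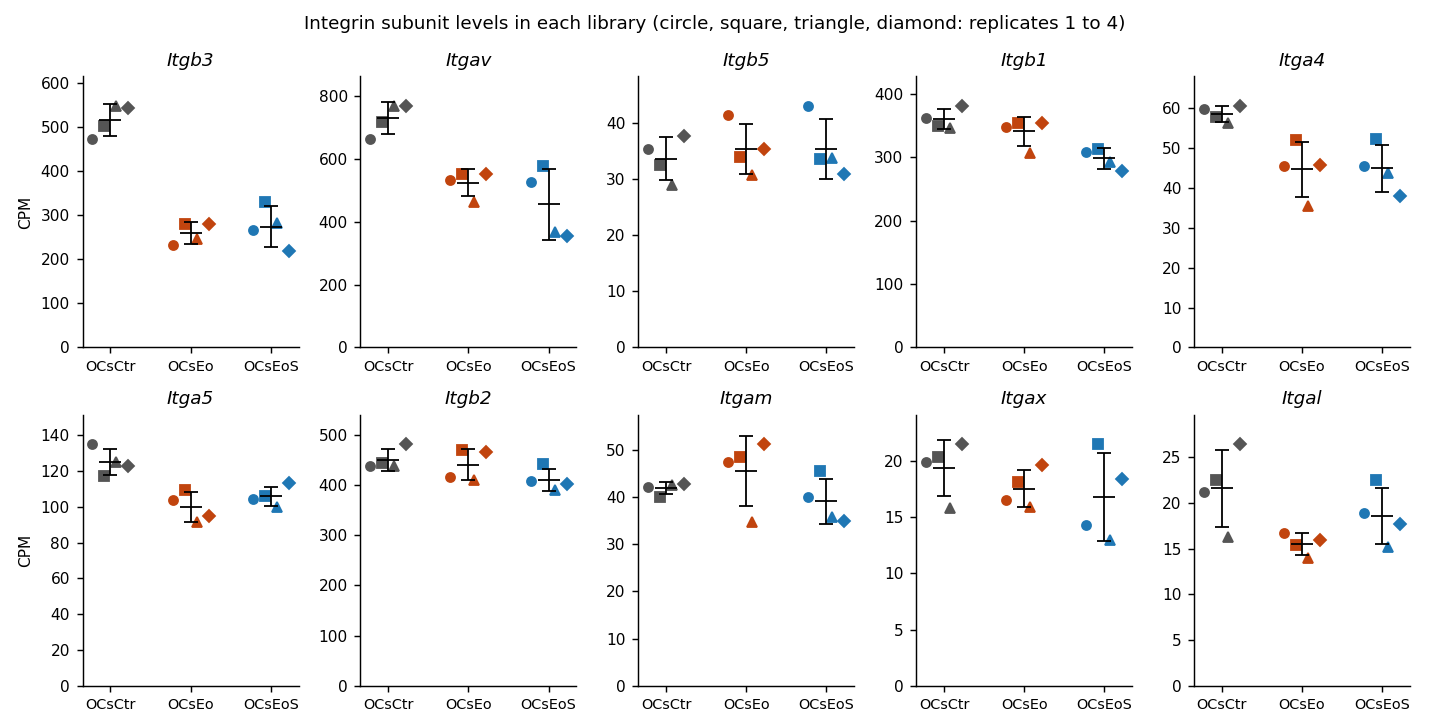
Level of each integrin subunit in every library, in CPM on linear axes that start at 0, with 1 panel per gene. Symbols are libraries (circle, square, triangle and diamond for replicates 1 to 4), and the black bars give the group mean ± SD (n = 4). The Itgb3 and Itgav libraries of both stimulated groups lie below all OCsCtr libraries, while Itgb5 and Itgb2 overlap between the groups.

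Itgav encodes alpha-v, the chain that beta-3 and beta-5 share (chr2:83724397-83806916, GRCm38, + strand). Its level was 663, 718, 769 and 769 CPM in OCsCtr and 531, 551, 462 and 553 CPM in OCsEo. The OCsEoS libraries fell into a higher pair of 526 and 577 CPM (replicates 1 and 2) and a lower pair of 366 and 354 CPM (replicates 3 and 4), and all 8 stimulated libraries lay below the 4 unstimulated ones. The log2 fold change was -0.68 in OCsEoS (95% interval -0.93 to -0.43, adjusted p = 3.25e-04), which was called. In OCsEo it was -0.48 (-0.72 to -0.23, adjusted p = 0.00727), which passed the adjusted p but not the limit of 0.5. The OCsEo value moved past 0.5, to between -0.52 and -0.50, without OCsCtr 1, OCsEo 2 or OCsEo 4. Itgav is one of the longer genes of the group, and after the trend of each library on gene length was taken out its values were -0.35 (adjusted p = 0.0276) and -0.52 (adjusted p = 0.00143). In the annotation 634 of its 10744 exonic bases are shared with Gm13684 on the opposite strand. That row held at most 8 counts in any library.

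Itgb5 encodes the beta-5 chain (chr16:33829665-33949153, GRCm38, + strand). It had 28.8 to 37.7 CPM in OCsCtr, 30.7 to 41.4 CPM in OCsEo and 30.9 to 43.0 CPM in OCsEoS. The 3 ranges overlapped, and both log2 fold changes were 0.07 (95% intervals -0.17 to 0.31 in OCsEo and -0.17 to 0.31 in OCsEoS, adjusted p = 0.737 and 0.715). The intervals leave room for a rise or a small fall, but not for a fall of the size seen for Itgb3.

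The relation of beta-3 and beta-5, 2 of the beta chains that pair with alpha-v, was examined within each library. It was taken as the ratio of Itgb3 to Itgb5 counts, which does not depend on the scaling of libraries. The ratio was 13.4, 15.5, 19.0 and 14.4 in OCsCtr, 5.62, 8.26, 8.02 and 7.95 in OCsEo, and 6.17, 9.83, 8.33 and 7.08 in OCsEoS. No stimulated library reached the lowest unstimulated ratio. The mean log2 ratio was lower by 1.06 in OCsEo (3.95 ± 0.22 against 2.88 ± 0.26, SD, n = 4) and by 1.00 in OCsEoS (2.95 ± 0.29). A two-sided exact permutation test over the 35 arrangements of 4 and 4 libraries gave p = 0.0286 for each, the smallest p that 4 against 4 libraries allow. Adjusted over the 12 ratio tests run, p was 0.114, so neither passed the correction. At this smallest p a test can pass the correction only if most of the 12 tests reach it. The adjusted p therefore cannot decide on a single ratio. As these values are counts and not levels per length, only their change between groups is of use.

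The ratio of Itgb3 to Itgav, the chains of the osteoclast integrin itself, was almost constant in OCsCtr at 0.712, 0.700, 0.713 and 0.705. It was 0.438, 0.508, 0.533 and 0.507 in OCsEo, below all OCsCtr libraries (difference of the mean log2 ratio -0.51, exact permutation p = 0.0286, 0.114 after adjustment). In OCsEoS it spread from 0.504 to 0.770, overlapping OCsCtr (difference -0.22, exact permutation p = 0.143, 0.286 after adjustment). Between OCsEoS and OCsEo the difference was 0.30 (exact permutation p = 0.114, 0.274 after adjustment). The log2 ratios of Itga4 to Itga5 and of Itgam to Itgax differed by -0.15 to 0.24 over the 3 comparisons, with overlapping groups and exact permutation p-values of at least 0.114.

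**Figure D2:**
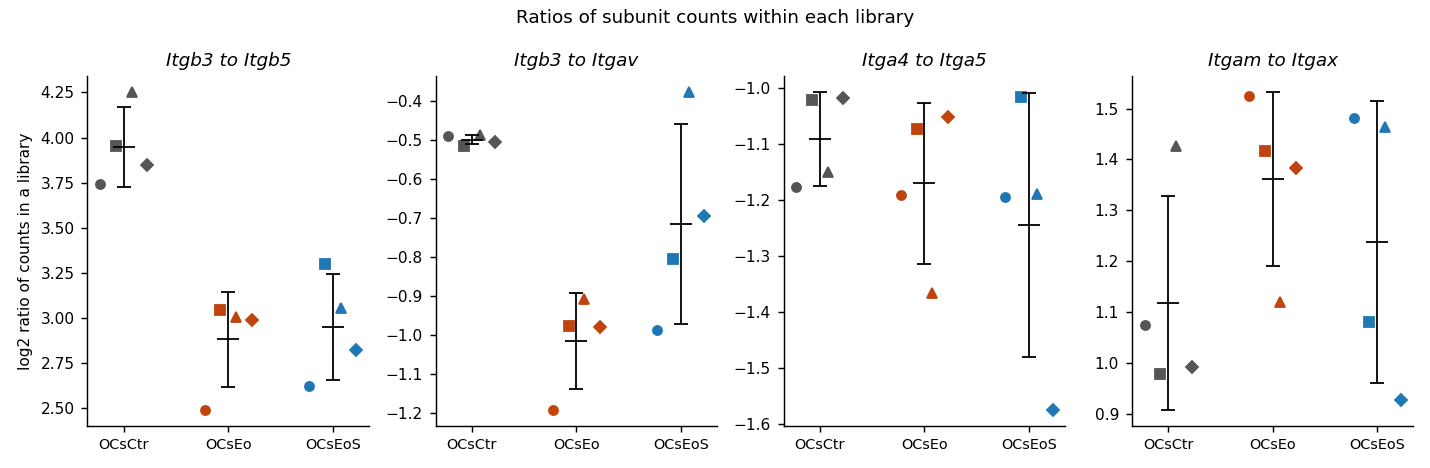
The log2 ratio of counts of 2 integrin subunits within each library, with 1 panel per ratio and its own linear axis that does not start at 0. Symbols are libraries as in the plot of levels, and bars give the mean ± SD (n = 4). The Itgb3 to Itgb5 ratio separates both stimulated groups from OCsCtr, and the Itgb3 to Itgav ratio separates OCsEo but not OCsEoS.

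Itgb1 encodes the beta chain of the most widespread integrin family (chr8:128685654-128733200, GRCm38, + strand). Its level was 362, 350.4, 347 and 382 CPM in OCsCtr and 348, 355, 307 and 354 CPM in OCsEo, with overlapping groups. In OCsEoS it was 309, 314, 293 and 278 CPM, below every OCsCtr library. Against OCsCtr it differed on the log2 scale by -0.08 in OCsEo (95% interval -0.21 to 0.05, adjusted p = 0.421) and by -0.27 in OCsEoS (-0.40 to -0.15, adjusted p = 0.00270), under the limit for a call. The difference between OCsEoS and OCsEo, -0.19, had an unadjusted p of 0.00491 and an adjusted p of 0.203.

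Itga4, the alpha-4 chain of the VCAM-1 receptor (chr2:79255426-79333123, GRCm38, + strand), and Itga5, the alpha-5 chain of the fibronectin receptor (chr15:103344289-103366763, GRCm38, - strand), were both lower after either stimulus. Itga4 was at 59.8, 57.8, 56.2 and 60.7 CPM in OCsCtr, 45.5, 52.0, 35.5 and 45.7 CPM in OCsEo, and 45.5, 52.4, 43.8 and 38.0 CPM in OCsEoS. Itga5 was at 135, 117, 125 and 123 CPM in OCsCtr, 104, 109, 91.6 and 94.7 CPM in OCsEo, and 104, 106, 99.9 and 113 CPM in OCsEoS. For both genes all stimulated libraries lay below the unstimulated ones. Itga4 differed by -0.39 on the log2 scale in OCsEo (95% interval -0.61 to -0.17, adjusted p = 0.0123) and by -0.38 in OCsEoS (-0.60 to -0.17, adjusted p = 0.0111). Itga5 differed by -0.32 (-0.47 to -0.18, adjusted p = 0.00282) and by -0.24 (-0.39 to -0.10, adjusted p = 0.0164). Neither gene reached the limit for a call.

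The Itga4 values depended on the treatment of gene length. With 13978 bases Itga4 is the longest of the members, and with the trend on gene length taken out its log2 fold changes were -0.23 (adjusted p = 0.0619) and -0.17 (adjusted p = 0.139), no longer under an adjusted p of 0.05. Itga5 in OCsEoS had an adjusted p of 0.0643 without OCsEoS 3. Cerkl, which shares 1124 exonic bases with Itga4 on the opposite strand, held at most 49 counts in a library, against at least 1279 for Itga4.

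Itgb2 encodes the beta-2 chain of leukocyte integrins (chr10:77530252-77565708, GRCm38, + strand). It had 437 to 482 CPM in OCsCtr, 411 to 469 CPM in OCsEo and 391 to 442 CPM in OCsEoS. The groups overlapped, with log2 fold changes of -0.03 (95% interval -0.16 to 0.10, adjusted p = 0.796) and -0.13 (-0.26 to -0.01, adjusted p = 0.124). Of its alpha partners, Itgax (CD11c, chr7:128129547-128150657) had 15.8 to 21.5 CPM in OCsCtr, 15.9 to 19.6 CPM in OCsEo and 12.9 to 21.5 CPM in OCsEoS, at -0.14 and -0.21 with adjusted p-values of 0.569 and 0.348.

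Itgal, the alpha chain of LFA-1 (chr7:127296260-127335138), was at 21.2, 22.5, 16.3 and 26.5 CPM in OCsCtr, 16.7, 15.4, 14.0 and 15.9 CPM in OCsEo and 18.9, 22.5, 15.1 and 17.7 CPM in OCsEoS. The OCsCtr library of 16.3 CPM lay within the OCsEo range. The log2 fold change was -0.48 in OCsEo (95% interval -0.77 to -0.18, adjusted p = 0.0226) and -0.22 in OCsEoS (-0.51 to 0.07, adjusted p = 0.295). The OCsEo result rested on single libraries: the adjusted p was 0.0616, 0.103 and 0.0681 without OCsCtr 2, OCsCtr 4 and OCsEo 3, and the log2 fold change was -0.59 and -0.52, past the limit, without OCsCtr 3 and OCsEo 1.

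Itgam, the alpha-M chain (CD11b, chr7:128062640-128118491), is also carried by eosinophils and neutrophils. It was at 42.0, 40.1, 42.5 and 42.8 CPM in OCsCtr, 47.5, 48.4, 34.7 and 51.2 CPM in OCsEo and 40.0, 45.5, 35.7 and 34.9 CPM in OCsEoS. Of the 4 OCsEo libraries, 3 exceeded all OCsCtr libraries and OCsEo 3 lay below them, with log2 fold changes of 0.12 in OCsEo (95% interval -0.11 to 0.34, adjusted p = 0.526) and -0.10 in OCsEoS (-0.33 to 0.13, adjusted p = 0.569). The 8 neutrophil markers summed to 186 to 271 CPM in OCsCtr, 279 to 365 CPM in OCsEo and 216 to 248 CPM in OCsEoS. The 10 eosinophil markers summed to 57.1 to 73.7, 60.1 to 82.2 and 49.3 to 55.5 CPM, and most of that was Ccr3 (59.6, 48.7 and 50.7 CPM on average). Alox15 had 6.24 to 16.7 CPM in OCsEo, 0.104 to 0.653 CPM in OCsCtr and 0.178 to 1.13 CPM in OCsEoS, and was called higher in OCsEo (log2 fold change 5.17, adjusted p = 8.42e-07). Siglecf averaged 2.94 CPM in OCsEo, against 0.428 CPM in OCsCtr and 0.827 CPM in OCsEoS. Prg2 averaged 5.53, 5.49 and 0.815 CPM in OCsCtr, OCsEo and OCsEoS. Of the 5 eosinophil markers with enough counts to be tested, 3 had log2 fold changes below 0 in OCsEo. Epx, the eosinophil peroxidase gene, had 18 and 13 counts in OCsEo 2 and OCsEo 3 and 0 in OCsEo 1 and OCsEo 4, at most 6 counts in an OCsCtr library, and 0 in all 4 OCsEoS libraries, where 4 of the 10 markers were at 0. The part of these cells in the level of Itgam, or of any other integrin subunit, was not tested. The Itgam level is also uncertain, because 3450 of its 5024 exonic bases (68.7%) are shared with Gm49368, which the deposited table lists as the second Itgam row, and reads on shared bases may not have been counted.

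**Figure D3:**
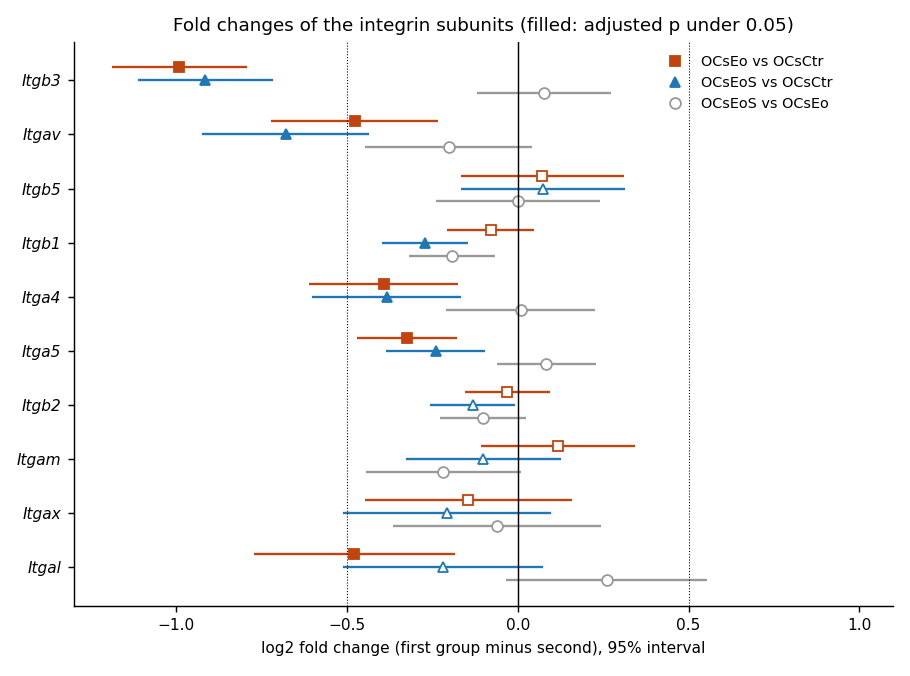
The log2 fold change of each integrin subunit (x axis, with its 95% interval) in the 3 comparisons, from edgeR. Filled symbols have an adjusted p under 0.05, and dotted lines mark 0.5 in either direction. Itgb3 lies beyond the line with its whole interval in both comparisons with OCsCtr, and no symbol of OCsEoS against OCsEo is filled.

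Of the 10 members, 1 was called lower in OCsEo (Itgb3) and 2 in OCsEoS (Itgb3 and Itgav), against 2.61% and 4.11% of all tested genes. None was called higher, against 3.27% and 3.63% of all genes. By adjusted p alone, 5 of 10 were lower in each comparison, against 8.35% and 11.2% of all genes. These were Itgb3, Itgav, Itga4 and Itga5 in both, with Itgal in OCsEo and Itgb1 in OCsEoS. All stimulated libraries lay below all unstimulated ones for 4 members in OCsEo and 5 in OCsEoS, against 10.9% and 13.1% of all genes. The median log2 fold change was -0.23 over the members in both comparisons and -0.01 over all tested genes in both. Both comparisons share the OCsCtr libraries. The OCsEo count was 2 in place of 1 without OCsCtr 1, OCsEo 2 or OCsEo 4, with Itgav added, and without OCsCtr 3 or OCsEo 1, with Itgal added. Without OCsEo 3 and OCsEoS 4 together the counts were 1 and 2, with Itgb3 at -0.97 and -0.82 and Itgav at -0.42 and -0.58.

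Between OCsEoS and OCsEo edgeR called none of the 10 members, against 0.38% of all genes, and DESeq2 on all 12 libraries called none either. At an unadjusted p under 0.05 it was 1 member, Itgb1, against 11.1% of all genes. The log2 differences ran from -0.22 for Itgam to 0.26 for Itgal. For Itgb3 the difference was 0.08 with a 95% interval of -0.12 to 0.27, which leaves out a difference as large as that between either stimulated group and OCsCtr. For Itgav it was -0.20 (-0.45 to 0.04, adjusted p = 0.548).

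Levels of different genes were compared per kb of the gene length in the table. In OCsCtr Itgb2 was highest at 148 ± 7.06 CPM per kb (SD, n = 4). It was followed by Itgb1 at 88.3 ± 3.86 and Itgb3 at 87.5 ± 6.09, whose libraries overlapped, then by Itgav at 68.0 ± 4.70 and Itga5 at 28.6 ± 1.70. Itgb5 at 9.98 ± 1.13 and Itgam at 8.33 ± 0.25 CPM per kb came next, and Itga4, Itgax and Itgal had 4.19 ± 0.14, 4.04 ± 0.52 and 3.29 ± 0.64 with neighbours that overlapped. In OCsEo Itgb3 stood at 44.0 ± 4.11 CPM per kb and Itgb1 at 83.6 ± 5.65, and in OCsEoS they stood at 46.4 ± 7.79 and 73.1 ± 3.98, with no overlap of their libraries in either stimulated group. Itgav, at 48.8 ± 3.97 and 42.4 ± 10.5 CPM per kb, overlapped Itgb3 in both. The place of Itgav depends on the length used: per kb of its longest coding transcript it was at 104 CPM per kb in OCsCtr, above Itgb3 at 89.3. Per kb of exonic bases that no other gene shares, Itgam was at 26.6 CPM per kb in OCsCtr.

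**Figure D4:**
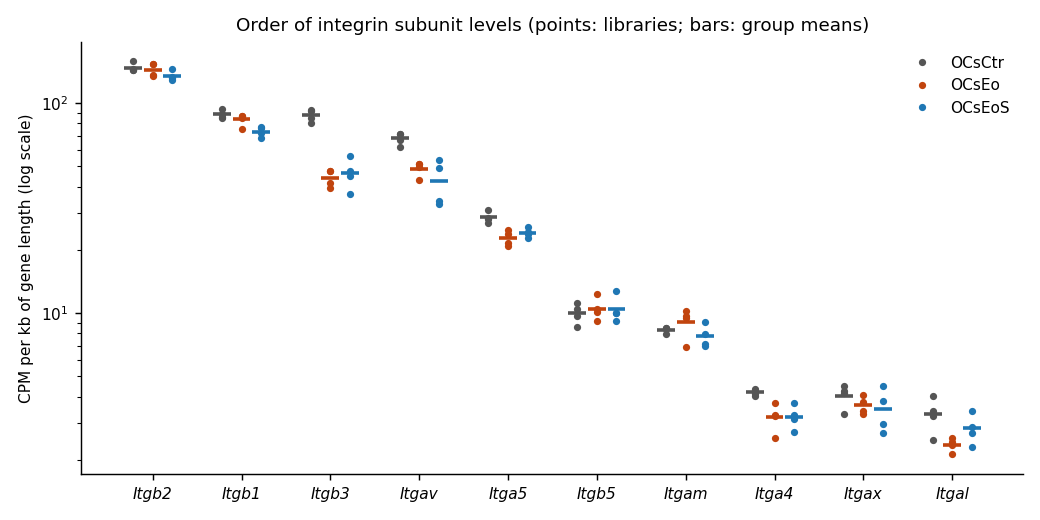
Level of each integrin subunit in CPM per kb of gene length, on a log axis, with genes in the order of their OCsCtr mean. Points are libraries and short bars are group means. Itgb3 stands beside Itgb1 in OCsCtr and beside Itgav in OCsEo and OCsEoS.

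The sequences before the start sites of 3 members that were lower by adjusted p in both comparisons (Itgav, Itga4, Itga5) and of Itgb5, which was not, are shown so that members with a lower level can be read beside one without. They are the 250 bases before the RefSeq start in GRCm38.p6, 5′ to 3′ on the gene's strand, and 7 of the 10 members matched an entry (not Itgb3, Itgb2 and Itgal). The regions are chr2:83724147-83724396 for Itgav, chr2:79255176-79255425 for Itga4, chr15:103366792-103367041 for Itga5 and chr16:33829415-33829664 for Itgb5. Capitals mark 4 motifs, each searched on both strands. GAGGAA is the core of the PU.1 site. The core of the NFAT site is GGAAA, which can overlap it. The TATA box was searched as TATAAA. The GC box was searched as GGGCGG.
Itgav: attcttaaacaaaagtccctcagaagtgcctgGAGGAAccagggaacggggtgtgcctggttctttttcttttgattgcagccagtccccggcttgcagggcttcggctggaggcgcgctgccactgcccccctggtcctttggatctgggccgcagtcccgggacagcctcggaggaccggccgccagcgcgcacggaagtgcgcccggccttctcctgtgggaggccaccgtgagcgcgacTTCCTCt
Itga4: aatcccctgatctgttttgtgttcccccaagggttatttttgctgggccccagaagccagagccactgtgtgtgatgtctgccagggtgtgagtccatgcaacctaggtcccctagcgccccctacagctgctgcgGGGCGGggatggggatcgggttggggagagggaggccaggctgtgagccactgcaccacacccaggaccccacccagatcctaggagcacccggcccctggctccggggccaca
Itga5: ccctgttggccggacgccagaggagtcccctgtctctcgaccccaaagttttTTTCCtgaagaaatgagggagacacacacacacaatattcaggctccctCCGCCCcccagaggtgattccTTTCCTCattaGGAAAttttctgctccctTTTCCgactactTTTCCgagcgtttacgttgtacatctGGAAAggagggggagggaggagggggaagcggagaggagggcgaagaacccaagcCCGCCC
Itgb5: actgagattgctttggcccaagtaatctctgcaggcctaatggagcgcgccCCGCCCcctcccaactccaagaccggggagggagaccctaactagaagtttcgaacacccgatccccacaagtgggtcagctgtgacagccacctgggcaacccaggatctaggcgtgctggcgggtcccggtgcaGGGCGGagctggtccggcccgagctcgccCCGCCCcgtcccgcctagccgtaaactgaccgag
PU.1 and NFATc1 are transcription factors of osteoclast formation. GAGGAA was found 2 times for Itgav, 1 time for Itga5 and not for Itga4 and Itgb5, and 23.3% of all 32851 promoters of this length hold it. GGAAA occurred 6 times for Itga5, 1 of them overlapping GAGGAA, and not for the others, against 55.6% of all promoters with at least 1. GGGCGG occurred 3 times for Itgb5, 2 times for Itga5 and 1 time for Itga4, and 32.7% of all promoters hold it. None of the 4 held TATAAA, which 12.4% of all promoters hold. The GC content was 64.4% for Itgav, 64.0% for Itga4, 55.6% for Itga5 and 65.2% for Itgb5, against a median of 52.4%. Of the entries not printed, that of Itgam, which was not lower by adjusted p in either comparison, held GGAAA 3 times and GAGGAA 2 times. That of Itgb1 held each 1 time, and that of Itgax held neither. These matches describe the letters only.

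Of the 17 other integrin subunits listed, 10 were tested. Itga2, a collagen receptor chain, averaged 12.2 ± 1.67 CPM in OCsCtr (SD, n = 4) and 5.07 ± 1.66 and 5.17 ± 0.64 CPM after eosinophils and supernatant, and was called lower in both (log2 fold changes -1.27 and -1.24, adjusted p = 2.36e-04 and 2.01e-04). Itgae, an alpha chain that pairs with beta-7, averaged only 3.28, 2.14 and 1.93 CPM in OCsCtr, OCsEo and OCsEoS. It was called lower in OCsEoS (-0.76, adjusted p = 0.0432), a call lost under 10 of 22 alternatives, and had -0.61 in OCsEo (adjusted p = 0.120). Itgb7 had the highest level per length of the list, with 60.0, 59.4 and 48.3 CPM per kb in OCsCtr, OCsEo and OCsEoS. It differed by -0.01 in OCsEo (adjusted p = 0.932) and was lower by adjusted p in OCsEoS, at -0.31 (adjusted p = 0.00354). In all, 1 and 2 of 10 were called lower and none higher, against 2.61% and 4.11% of all tested genes called lower and 3.27% and 3.63% called higher. The medians were -0.35 and -0.38, against -0.01 over all tested genes in both comparisons. Without OCsCtr 2 the OCsEo count was 2, and the OCsEoS count was 1 without OCsCtr 1, OCsCtr 4 or OCsEoS 2. Itga2b, the platelet partner of beta-3, was at 14.3 ± 2.96, 10.7 ± 1.33 and 10.5 ± 1.44 CPM.

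Of 32 listed activators, adaptors and kinases of integrins, 29 were tested. Eosinophils gave 3 calls, all lower. Supernatant gave 3 lower and 1 higher. Over all tested genes 2.61% and 4.11% were called lower and 3.27% and 3.63% higher. Src, the kinase that acts directly downstream of beta-3 in osteoclasts, averaged 170.0 ± 6.77 CPM in OCsCtr (SD, n = 4), 116 ± 8.01 CPM with eosinophils and 108 ± 9.00 CPM with supernatant. It was called lower in both (-0.55, adjusted p = 2.60e-05, and -0.66, adjusted p = 4.27e-06). Its libraries did not overlap between OCsCtr and either stimulated group. Kank1, a talin-binding adaptor, was called lower in both at -0.66 (adjusted p = 0.0285 and 0.0231). The first of these calls was lost under 7 of 22 alternatives, among them without OCsCtr 1, OCsCtr 2, OCsCtr 4, OCsEo 1, OCsEo 3 or OCsEo 4. The second was lost without OCsCtr 1, OCsCtr 2, OCsEoS 2 or OCsEoS 3. Vcl (vinculin) was called lower in OCsEo (-0.52, adjusted p = 0.00334). This call was lost under 3 of 22 alternatives, among them without OCsEo 3 (-0.43) and with the length trend taken out (-0.48). Vcl had -0.38 in OCsEoS (adjusted p = 0.0227).

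Bcar1 (p130Cas) was called lower in OCsEoS (-0.58, adjusted p = 0.0201). This call was lost under 3 of 22 alternatives, among them without OCsCtr 1 or OCsEoS 4. In OCsEo Bcar1 had -0.48 (adjusted p = 0.0612), and it was called there without OCsEo 1 or OCsEo 2. Ptk2 (focal adhesion kinase) was called higher in OCsEoS (0.57, adjusted p = 0.0257), a call lost without OCsCtr 2, OCsCtr 3 or OCsEoS 3. Rap1b, a small GTPase that activates integrins, had the highest level per length, 440.0, 530.4 and 537 CPM per kb, and was higher by adjusted p but under the limit, at 0.27 and 0.29 (adjusted p = 0.00212 with eosinophils and 8.58e-04 with supernatant). By adjusted p alone 7 of 29 were lower and 2 higher in OCsEo, and 13 lower and 4 higher in OCsEoS. Of all 13681 tested genes, 8.35% and 11.2% were lower by this rule, and 1239 and 1620 genes were higher. The list medians were -0.18 and -0.24, against -0.01 over all tested genes in both comparisons. Without OCsEo 3 the number called in OCsEo was 1 in place of 3, and without OCsCtr 1, OCsCtr 2 or OCsEoS 3 the number called in OCsEoS was 2 in place of 4.

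Of 20 listed ligands, 14 were tested. Spp1, which encodes osteopontin, a ligand of alpha-v beta-3, had the highest level per length of the list and was called higher in OCsEo, averaging 360.2 ± 23.2 CPM in OCsCtr (SD, n = 4), 573 ± 16.8 CPM with eosinophils and 462 ± 43.2 CPM with supernatant. Against OCsCtr the log2 difference was 0.67 with eosinophils (adjusted p = 1.16e-06) and 0.36 with supernatant (adjusted p = 4.93e-04). The log2 difference of OCsEoS from OCsEo was -0.31 (adjusted p = 0.0309). Over 22 alternatives this difference was -0.36 to -0.27, and its adjusted p rose to as much as 0.137. Icam2, a ligand of LFA-1, was called higher in both (0.97, adjusted p = 8.74e-04, and 1.04, adjusted p = 3.32e-04), from 5.74 ± 1.38 CPM in OCsCtr to 11.2 ± 1.68 and 11.8 ± 2.07. Edil3, an RGD protein that binds alpha-v integrins, was called lower in both (-0.64, adjusted p = 7.59e-04, and -0.89, adjusted p = 2.86e-05), and with the length trend taken out the OCsEo call was lost (-0.48). Mfge8, another RGD ligand of alpha-v, was called lower in OCsEoS (-0.66, adjusted p = 3.91e-04) and had -0.20 in OCsEo (adjusted p = 0.262). Of the 14 ligands, 1 was called lower and 2 higher with eosinophils, and 2 lower and 1 higher with supernatant, against the same shares of all tested genes (2.61% and 4.11% lower, 3.27% and 3.63% higher). The list medians were -0.24 and -0.10. Without OCsEo 2 the number called in OCsEo was 6 in place of 3.

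**Figure D5:**
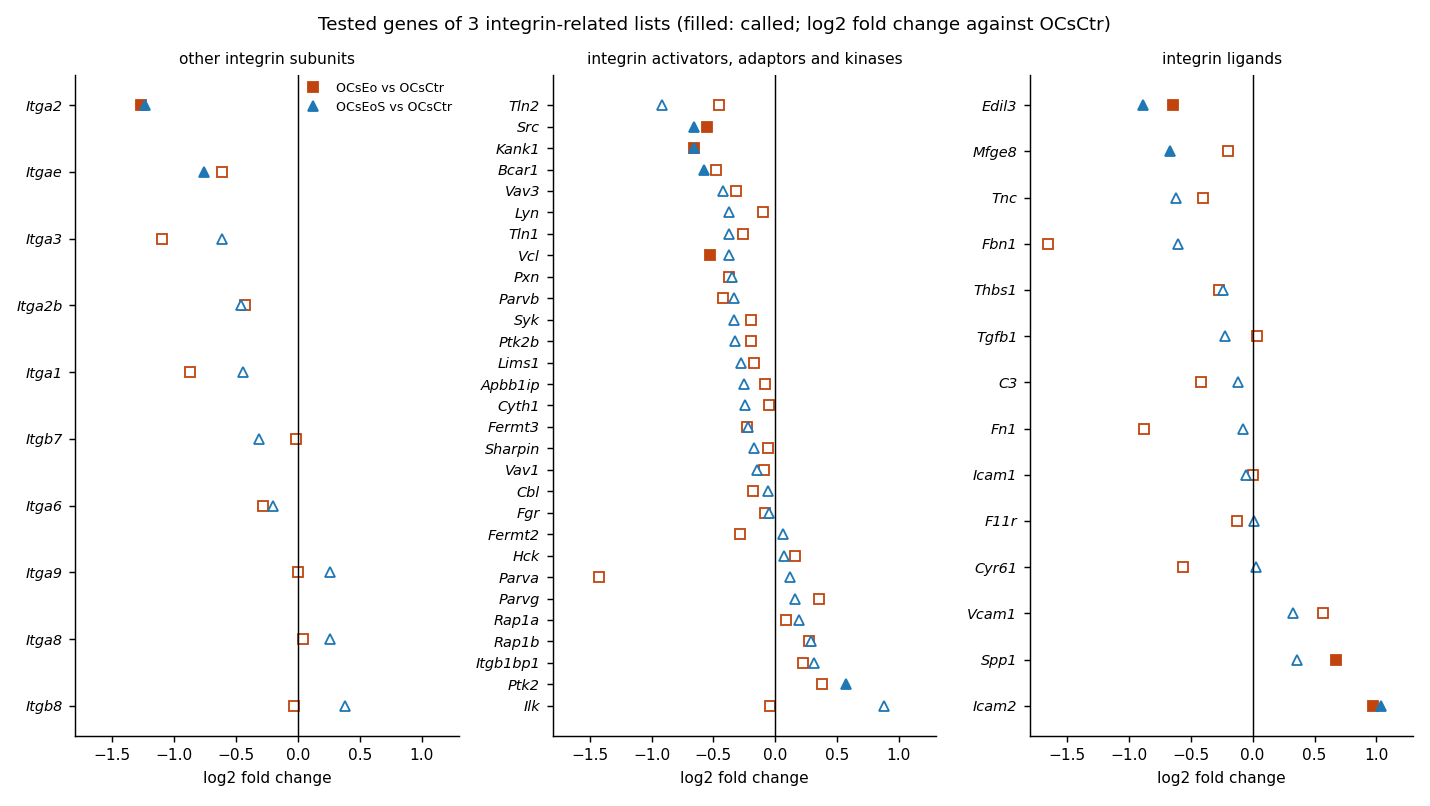
The log2 fold change against OCsCtr of every tested gene in the lists of other integrin subunits, integrin activators, adaptors and kinases, and integrin ligands (squares OCsEo, triangles OCsEoS). Filled symbols were called. Filled symbols lie left of 0 for Itga2, Itgae, Src, Kank1, Bcar1, Vcl, Edil3 and Mfge8 and right of 0 for Ptk2, Spp1 and Icam2.

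The genes whose pattern over the 12 libraries was most like that of Itgb3 were found by the root mean square (RMS) difference of their centred log2 CPM, a description with no test, since all genes share the same libraries. The 5 nearest were Cd109 (RMS 0.092), a surface protein anchored by GPI, Myo1d (0.111), an unconventional myosin, Serpine2 (0.126), a secreted protease inhibitor, Ndst1 (0.128), a heparan sulfate sulfotransferase, and Rcan2 (0.140), a regulator of calcineurin. In OCsCtr, OCsEo and OCsEoS, Cd109 averaged 277, 155 and 149.8 CPM and Rcan2 averaged 97.6, 55.5 and 49.4 CPM. The median RMS difference over all genes was 0.554. No other member came as near as these 5. Itgav was the nearest member at 0.254, and Itgb5, at 0.536, lay close to the median gene.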

How the data were processed

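The deposited table holds raw counts per gene, which the authors obtained with featureCounts after alignment of paired-end reads with HISAT2 2.0.5 to mm10 (fastp is also named in the submitters' processing notes). The annotation release and the strand setting are not given in the sources used here. Its gene length column was used per kb as deposited, and no column of per-sample values was left out. Counts were tested with edgeR 4.0.16 (R 4.3.3; TMM scaling, filterByExpr with a minimum count of 10, quasi-likelihood F-test, 1 fit of the 3 groups without a block), with Benjamini-Hochberg adjustment over the 13681 genes tested. At least 99.96% of each library's counts lay in tested genes. Standard errors and 95% intervals follow from the F statistic. CPM and the limit of 3 counts cover counting error only. Replicates differed beyond sampling noise in all 18 pairs (chi-square per degree of freedom 10.3 to 36.9). Ratios used 0.5 added to each count and exact permutation tests (Python 3.11.15). The fit and the permutation test were tested on simulated data. DESeq2 1.42.0 was an alternative.

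Named genes were the 10 members, in each of the 3 gene lists the genes called against OCsCtr (at most 6) and the one with the highest level per length, and the 5 genes nearest to Itgb3. Itga2b and the cell type markers give values only. The members and lists were chosen with earlier results of these data known. The omission of 2 libraries together and the other gene lengths were chosen after seeing the data. Exon overlaps come from GENCODE vM21 (GRCm38) and promoters from RefSeq.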

Additional observations from a re-analysis of the deposited data

Results flagged for a closer look

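In 42 groups of 4 libraries (the 10 members' CPM and the 4 log2 ratios in each group), 3 held a library whose gap to its neighbour exceeded Dixon's 95% critical value for the share of the group's range. Chance flags about 1 in 20 groups. Itgb1 was at 307 CPM in OCsEo 3, below the other OCsEo libraries at 348 to 355 CPM, with a gap of 0.861 of the range. Without OCsEo 3 its log2 fold change in OCsEo was -0.03 in place of -0.08. Itgb2 was at 482 CPM in OCsCtr 4, above the other OCsCtr libraries at 437 to 444 CPM (gap 0.851). The log2 ratio of Itgb3 to Itgb5 was 2.49 in OCsEo 1, below the others at 2.99 to 3.05 (gap 0.900).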

How the results depend on the processing

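Itgb3 was called lower in both comparisons with OCsCtr under each of 22 alternatives, with log2 fold changes of -1.03 to -0.93 in OCsEo and -1.01 to -0.82 in OCsEoS, and Itgav in OCsEoS under each of 22 (-0.81 to -0.52). By adjusted p alone 5 and 5 members and 2382 and 3151 genes of the whole table passed in OCsEo and OCsEoS, in place of 804 and 1058 genes called. Leaving out 1 library at a time gave 1 to 2 members called in OCsEo. Between OCsEoS and OCsEo, 52 genes of the whole table were called, against 94 with DESeq2 on all 12 libraries, 100 with no filter on low counts, 81 by adjusted p alone, 27 without OCsEo 3 and OCsEoS 4, and 17 to 62 when 1 library was left out (27, 34, 17 and 34 without OCsEo 2, OCsEo 3, OCsEoS 3 and OCsEoS 4). In that comparison Itgb3 was at -0.02 without OCsEoS 2. No ratio passed its adjusted threshold under any of 120 alternatives (lowest adjusted p 0.0857). The smallest p these allow is no lower than in the main tests, so this count cannot decide on a single ratio either. The replicate numbers were not taken to pair the samples, since no label says that they mark a shared mouse. Deviations of same-numbered libraries correlated at -0.04 to 0.09, none of 12 above 0.1. With the replicate number as a block, 1, 2 and 0 members were called in OCsEo, OCsEoS and OCsEoS against OCsEo, and the numbers of genes called were 854, 1108 and 67. The exact sign permutation test used for the ratios cannot give p below 0.125 with 4 pairs. The lowest count of a member was 402 (Itgax), and how far depth sets the width of its interval was not tested.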
